A study of Homo sapiens with 6 samples.

Results

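The glycolysis and hypoxia-induced genes examined here are a named list of 39 genes. It holds glucose transporters, the enzymes of glycolysis and of lactate formation, the kinases that set flux through the pathway, carbonic anhydrases, HIF1A and 13 hypoxia targets that are not metabolic enzymes. A gene was taken from probe sets that carry its symbol and no other, and the probe set with the highest mean was kept. This gave 36 of the 39 genes, out of 18377 genes measured in all. PGAM1, a phosphoglycerate mutase, was matched by 5 probe sets that also carry another symbol and was left out, and SLC16A3 and CA9 were not analysed here. The 36 genes fall into 6 of transport and control, 16 enzymes, 13 non-metabolic targets and HIF1A itself.

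The genes were measured in cells of the line labelled MCF10A-HER2/3, derived from MCF10A, an immortalised human mammary epithelial line, on 6 Affymetrix whole-transcript arrays. The cells carried a doxycycline-inducible lentiviral vector and formed 3 groups of 2 arrays each, SHP2 miR1, SHP2 miR2 and a control miR (CTRL miR). SHP2, encoded by PTPN11, is a tyrosine phosphatase that passes signals from receptor tyrosine kinases. The comparison asks what differs in 3D cultures when SHP2 is reduced. All 3 groups received doxycycline from the day after seeding, renewed every 2 days, and all were harvested for total RNA at day 15. All were kept in DMEM/F12 with EGF, insulin, cholera toxin, hydrocortisone and horse serum, so growth factor was present in every group. The oxygen level of the cultures is not given in the sources used here. One line was used. The labels do not state whether replicate arrays stem from separate cultures, so p-values here reflect the scatter of these arrays alone, which may be of technical origin.

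Glycolysis turns glucose into pyruvate in a chain of cytosolic enzymes, and lactate dehydrogenase then reduces pyruvate to lactate when little of it enters the mitochondria. Many of these enzymes are induced in low oxygen by HIF-1, a factor made of HIF1A and ARNT. In normal oxygen, prolyl hydroxylases of the EGLN family mark HIF1A for destruction through VHL, a step that acts on the protein and leaves the transcript in place. Growth factor signalling can also raise HIF-1 activity. HIF-1 binds DNA at a short core (ACGTG or GCGTG) and besides glycolysis drives genes of vessel growth, pH control, mitophagy, collagen hydroxylation and its own feedback.

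The target gene was lower on all 4 SHP2 miR arrays. PTPN11 had 6.04 and 5.71 with SHP2 miR1, 6.90 and 7.28 with SHP2 miR2, against 7.96 and 8.44 with CTRL miR (log2 probe set values, as are all values given for single arrays). Its average difference over both SHP2 miRs was -1.72 (SE 0.19, adjusted p = 0.00184). With SHP2 miR1 alone it was -2.32 (adjusted p = 0.000548), and with SHP2 miR2 alone -1.11, which did not pass (adjusted p = 0.0813). The basal keratin KRT5 was bright on every array, at 10.97 to 11.48, and 9 of 12 mammary epithelial markers were measured. KRT14, another basal keratin, rose by 1.10 (adjusted p = 0.00440) and was the 1 of these 9 that passed. Among markers of other cell types, in the average over both SHP2 miRs, 0 of 7 fibroblast, 2 of 5 endothelial, 0 of 4 leukocyte and 0 of 4 adipocyte genes passed. The endothelial receptor gene TEK fell by 1.38 (adjusted p = 0.000867) and PECAM1 rose by 0.60 (adjusted p = 0.0422), so these moved in opposite directions. The list medians on single arrays lay at 5.09 to 5.38 for fibroblast, 4.54 to 4.85 for endothelial and 4.31 to 4.66 for adipocyte markers. The median of all genes tested lay at 5.76 to 5.80, and that of all probe sets at 5.23 to 5.35. The leukocyte median was 6.30 and 6.20 with SHP2 miR1, 6.19 and 5.84 with SHP2 miR2, against 5.40 and 5.60 with CTRL miR, so it was higher on all 4 SHP2 miR arrays. Of its 4 genes, 3 had an unadjusted p under 0.05 in the average contrast, against 20.9% of all genes. The 4 differences ran from -0.43 to 0.96, with 3 of them above 0. PTPRC, the common leukocyte antigen, was dim on every array, at 3.18 to 3.53. The part of other cells in the results below was not tested.

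Averaged over both SHP2 miRs, 10 of the 36 genes fell and 0 rose. The genes that fell were SLC2A3, PFKFB3, PFKP, ENO2, CA12, VEGFA, ANGPTL4, ADM, EGLN3 and BHLHE40. Of all 18377 genes, 2.67% fell and 1.53% rose by the same test (limma, Benjamini-Hochberg adjusted over all genes, threshold 0.05). The median difference of the 36 genes was -0.33 on the log2 scale, against 0.02 over all genes. At an unadjusted p under 0.05 there were 21 of 36, against 20.9% of all genes. All 4 SHP2 miR arrays lay below both control arrays for 26 of the 36, and above both for 1, which was GPI. Over all genes these shares were 13.6% and 12.6%. In bulk RNA, fewer cells that express a gene cannot be told apart from less RNA per cell.

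**Figure D1:**
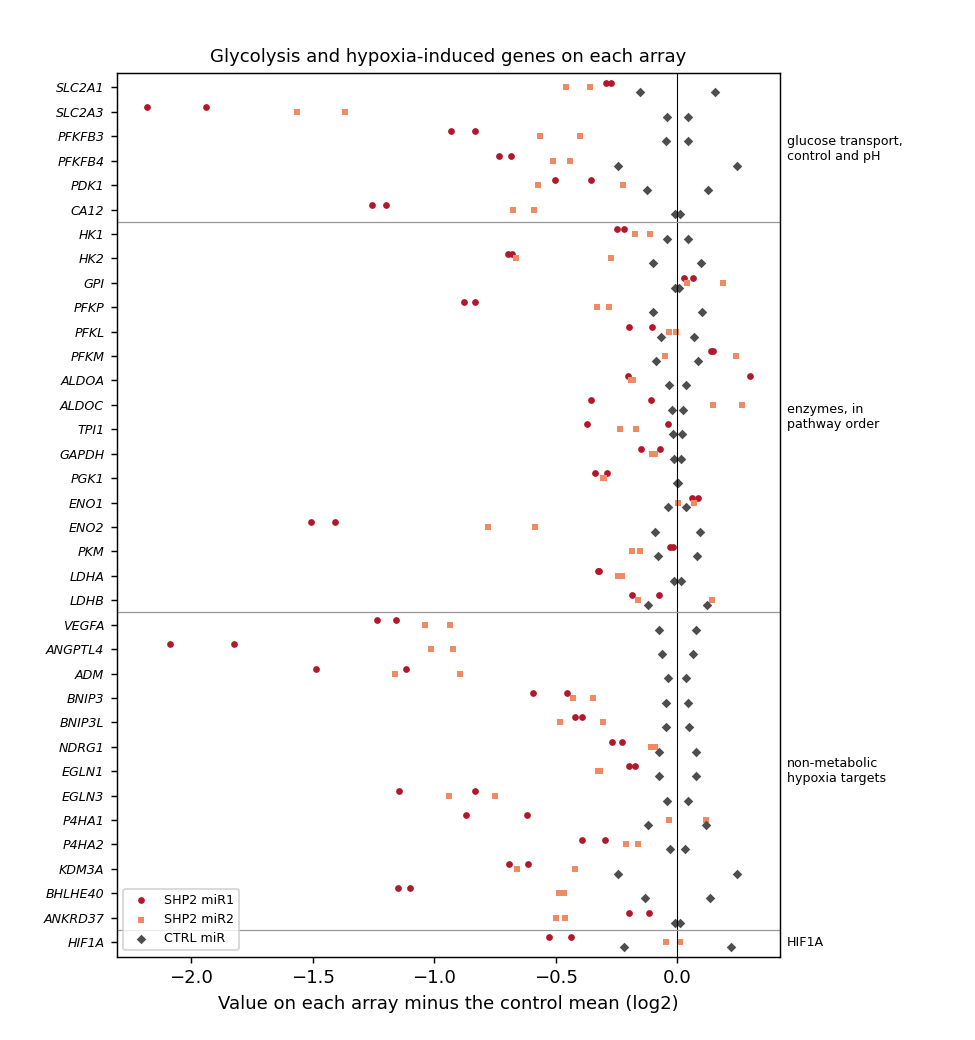
Values of the 36 genes on each of the 6 arrays, as the log2 probe set value minus the mean of the control arrays, with genes in rows by role. Circles are SHP2 miR1, squares SHP2 miR2 and diamonds CTRL miR, 1 point per array, and 26 of the 36 genes have all 4 SHP2 miR points left of both control points.

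Promoter stretches of 4 of the genes that fell are shown because these genes had the smallest p among those whose stretch holds a HIF-1 core. Each is the 250 bases before the RefSeq transcript start (GRCh38.p14), written 5′ to 3′ on the strand of the gene. Capitals mark the core ACGTG or GCGTG, or its reverse complement CACGT or CACGC where the core lies on the opposite strand.
ANGPTL4: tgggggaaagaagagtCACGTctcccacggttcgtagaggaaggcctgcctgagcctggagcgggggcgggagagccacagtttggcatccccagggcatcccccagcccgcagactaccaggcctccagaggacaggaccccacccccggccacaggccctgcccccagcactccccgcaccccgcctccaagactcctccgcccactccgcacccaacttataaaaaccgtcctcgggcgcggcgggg
ENO2: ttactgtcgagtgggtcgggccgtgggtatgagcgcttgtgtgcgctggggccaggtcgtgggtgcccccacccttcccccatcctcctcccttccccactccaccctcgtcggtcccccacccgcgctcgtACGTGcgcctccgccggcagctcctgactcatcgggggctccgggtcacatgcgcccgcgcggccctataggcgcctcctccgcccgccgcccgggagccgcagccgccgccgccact
ADM: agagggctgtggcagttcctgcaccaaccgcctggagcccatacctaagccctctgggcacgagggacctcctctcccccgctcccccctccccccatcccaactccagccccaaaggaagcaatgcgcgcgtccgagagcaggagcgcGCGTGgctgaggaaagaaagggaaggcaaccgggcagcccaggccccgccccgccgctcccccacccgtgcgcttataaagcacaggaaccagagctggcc
CA12: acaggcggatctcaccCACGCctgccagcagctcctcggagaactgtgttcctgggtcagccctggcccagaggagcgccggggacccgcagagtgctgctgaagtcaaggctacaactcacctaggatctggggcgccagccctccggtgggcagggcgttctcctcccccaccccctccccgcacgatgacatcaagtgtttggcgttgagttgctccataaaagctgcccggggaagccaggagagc
ANGPTL4 lies at chr19:8363905-8364154 on the plus strand, and its match begins 234 bases before the start. ENO2 lies at chr12:6914330-6914579 on the plus strand, with the match beginning 118 bases before the start. ADM lies at chr11:10304823-10305072 on the plus strand, with the match beginning 101 bases before the start. CA12 lies at chr15:63381847-63382096 on the minus strand, with the match beginning 234 bases before the start.

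Either core, on either strand, was a common string. It was present in 43.2% of all 35116 promoter stretches of this length in the RefSeq table. Of 56 stretches belonging to the genes described here, 34 held it (60.7%), since 1 gene can have several starts. By role, 19 of 36 stretches of enzymes, 9 of 11 of non-metabolic targets and 5 of 7 of transport and control genes held it. For the genes that fell, 9 of 12 stretches held it, and for the genes that did not pass, 25 of 44 did. These counts weigh genes by their number of starts. HK1 and PFKM, both enzymes that did not pass, have 7 stretches each, of which 1 held it. Genes with stretches but no match in any were EGLN3, which fell, and LDHB, PKM, P4HA2 and SLC2A1, which did not pass. The palindrome CACGTG, which holds the core on both strands and is also the E-box bound by MYC and BHLHE40, was in 16.1% of the stretches of these genes and in 6.34% of all. A match is only a match of letters, and binding was not measured. SLC2A3, VEGFA, BNIP3L and NDRG1 have no entry in the table used.

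Among the 6 genes of transport and control, 3 fell and the median difference was -0.64. Glucose enters the cell through facilitative transporters, of which SLC2A1 (GLUT1) is the common form and SLC2A3 (GLUT3) has a high affinity for glucose. SLC2A3 had 5.26 and 5.51 with SHP2 miR1, 5.88 and 6.08 with SHP2 miR2, against 7.49 and 7.40 with CTRL miR. All 4 SHP2 miR arrays were well below both controls, with SHP2 miR1 lowest, and no groups overlapped. SLC2A3 fell by 1.76 on average (SE 0.14, 3.39-fold, adjusted p = 0.000423), the largest difference of the 36 genes. SLC2A1 had 9.31 and 9.29 with SHP2 miR1, 9.22 and 9.13 with SHP2 miR2, against 9.74 and 9.43 with CTRL miR. Its arrays were ordered the same way against the controls, but the gap to the nearer control was small. The difference of SLC2A1 was -0.35 (95% interval -0.66 to -0.03) and did not pass (adjusted p = 0.200).

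The bifunctional enzymes PFKFB3 and PFKFB4 make and remove fructose 2,6-bisphosphate, the strongest activator of phosphofructokinase. PFKFB3 had 6.50 and 6.59 with SHP2 miR1, 7.03 and 6.86 with SHP2 miR2, against 7.38 and 7.47 with CTRL miR. The 3 groups stood apart, with SHP2 miR2 between the other two. PFKFB3 fell by 0.68 (SE 0.13, 1.61-fold, adjusted p = 0.0224). PFKFB4 had 6.13 and 6.18 with SHP2 miR1, 6.36 and 6.43 with SHP2 miR2, against 7.11 and 6.62 with CTRL miR. All 4 values were below both controls, which themselves lay far apart, and the difference of -0.59 did not pass (adjusted p = 0.0754).

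PDK1 is a kinase that shuts pyruvate dehydrogenase and so keeps pyruvate out of the mitochondria. It had 7.44 and 7.29 with SHP2 miR1, 7.22 and 7.57 with SHP2 miR2, against 7.67 and 7.92 with CTRL miR. The difference of -0.41 did not pass (adjusted p = 0.173). CA12, a carbonic anhydrase at the cell surface that handles the acid of glycolytic cells, had 9.51 and 9.57 with SHP2 miR1, 10.18 and 10.09 with SHP2 miR2, against 10.76 and 10.78 with CTRL miR. Replicates of CA12 differed little and the groups were well apart. CA12 fell by 0.93 (SE 0.12, 1.90-fold, adjusted p = 0.00462). Its mean value was higher than that of 99.1% of genes.

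Among the 16 enzymes, 2 fell, PFKP and ENO2, and the median difference was -0.10. All 4 SHP2 miR arrays lay below both controls for 8 of the 16, against 13.6% of all genes. The first step, phosphorylation of glucose, is carried out by the hexokinases. HK2, the form most often induced in growing cells, had 7.58 and 7.57 with SHP2 miR1, 7.99 and 7.60 with SHP2 miR2, against 8.36 and 8.17 with CTRL miR. Every SHP2 miR value was below both controls, with 1 SHP2 miR2 array close to them, and the difference of -0.58 did not pass (adjusted p = 0.0692). HK1, the widely expressed form, had a difference of -0.19 (adjusted p = 0.421). GPI, which isomerises glucose 6-phosphate to fructose 6-phosphate, had 10.44 and 10.41 with SHP2 miR1, 10.57 and 10.42 with SHP2 miR2, against 10.39 and 10.37 with CTRL miR. Its 4 values were above both controls by little, and the difference of 0.08 did not pass (adjusted p = 0.762).

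Phosphofructokinase, the committed step, is assembled from the P, L and M forms. PFKP had 9.09 and 9.13 with SHP2 miR1, 9.68 and 9.64 with SHP2 miR2, against 10.07 and 9.86 with CTRL miR. The SHP2 miR1 arrays were far below the controls and the SHP2 miR2 arrays only a little below. PFKP fell by 0.58 (SE 0.13, 1.5-fold, adjusted p = 0.0415), a call that was lost after quantile normalization and when any 1 of the 6 arrays was left out (adjusted p up to 0.156). PFKL had a difference of -0.09 (adjusted p = 0.742) and PFKM one of 0.12 (adjusted p = 0.671), and in both the groups overlapped.

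Aldolase splits fructose 1,6-bisphosphate, and TPI1 interconverts the triose products. ALDOA had a difference of -0.07 (adjusted p = 0.842), with 1 SHP2 miR1 array, at 9.16, above both controls, at 8.90 and 8.83. ALDOC, the form best known from brain, had 8.98 and 9.23 with SHP2 miR1, 9.61 and 9.49 with SHP2 miR2, against 9.32 and 9.36 with CTRL miR. The SHP2 miR1 arrays were below both controls and the SHP2 miR2 arrays above both, so the average of -0.01 (adjusted p = 0.974) cancels opposite values. TPI1 had a difference of -0.20 (adjusted p = 0.448). GAPDH and PGK1, which carry out the oxidation and the first ATP-yielding step, had differences of -0.10 (adjusted p = 0.673) and -0.31 (adjusted p = 0.198). PGK1 had 10.83 and 10.78 with SHP2 miR1, 10.81 and 10.82 with SHP2 miR2, against 11.12 and 11.12 with CTRL miR. Its replicates nearly coincided and the groups did not overlap, yet the 95% interval of -0.59 to -0.03 is wide, since the fit moderates the spread of each gene towards that of all genes.

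Enolase makes phosphoenolpyruvate, with ENO1 as the widespread form and ENO2 as the form known from neurons. ENO2 had 6.17 and 6.27 with SHP2 miR1, 7.10 and 6.91 with SHP2 miR2, against 7.78 and 7.59 with CTRL miR. The 3 groups were fully apart, with SHP2 miR1 lowest. ENO2 fell by 1.07 (SE 0.14, 2.1-fold, adjusted p = 0.00369), with a 95% interval of -1.38 to -0.77. ENO1 had 12.42 and 12.45 with SHP2 miR1, 12.43 and 12.37 with SHP2 miR2, against 12.40 and 12.33 with CTRL miR. These groups overlapped, and the difference was 0.05 with a 95% interval of -0.23 to 0.33 (adjusted p = 0.841). The last enzymes gave small differences. PKM, the pyruvate kinase of most tissues, had -0.10 (adjusted p = 0.707), LDHA, the form of lactate dehydrogenase linked to lactate output, had -0.28 (adjusted p = 0.234), and LDHB had -0.07 (adjusted p = 0.824). LDHA lay at 12.07 and 12.07 with SHP2 miR1, 12.15 and 12.17 with SHP2 miR2, below 12.41 and 12.38 with CTRL miR.

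**Figure D2:**
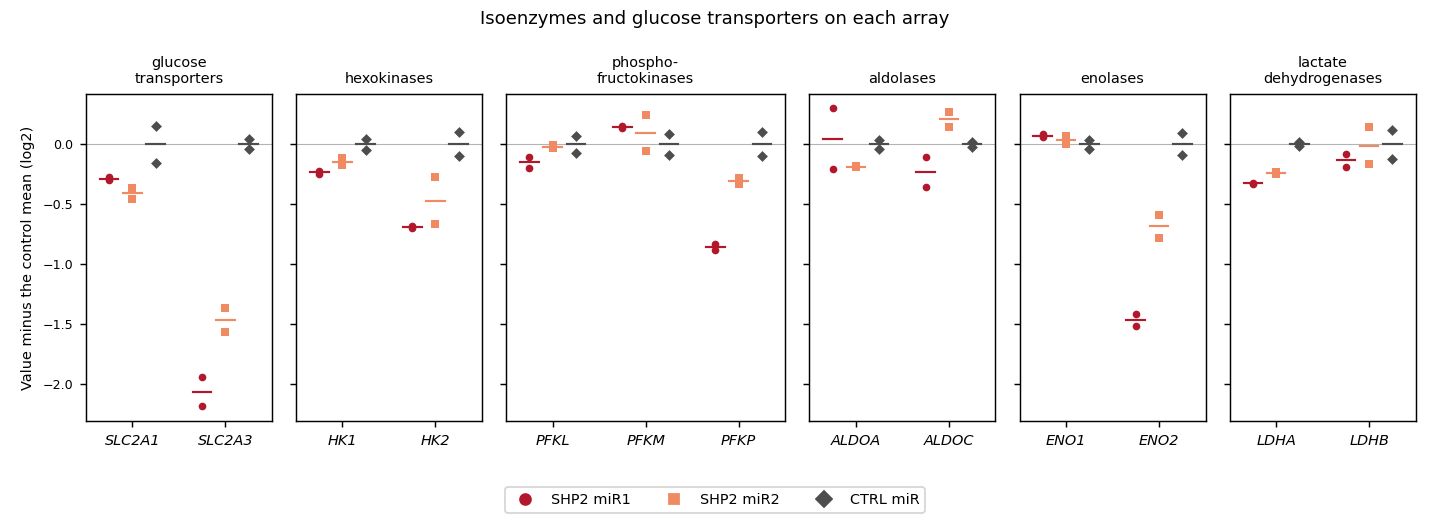
Glucose transporters and isoenzymes on each of the 6 arrays, as the log2 probe set value minus the mean of the control arrays, with bars at group means. SLC2A3 and ENO2 lie below -0.5 on all 4 SHP2 miR arrays, whereas SLC2A1 and ENO1 lie above -0.5 on all 4.

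Within some sets of forms that do the same step, 1 form fell while another did not pass. This was so for SLC2A3 beside SLC2A1, PFKP beside PFKL and PFKM, and ENO2 beside ENO1. Among the hexokinases, the aldolases and the lactate dehydrogenases, no form passed in the average contrast. This split depends on the threshold. HK2 and PFKP both had a difference of -0.58, with adjusted p = 0.0692 for HK2 and 0.0415 for PFKP. In a fit with a mean-variance trend, SLC2A1, HK2 and LDHA passed as well. The difference between forms was not tested. The forms also differ in how many pseudogenes are named after them. In the RefSeq table, 9 of the 16 enzymes have processed or other pseudogenes named after them, up to 65 for GAPDH, and ENO1 has 4 while ENO2 has 0. Of the 10 genes that fell, 2 have such pseudogenes (SLC2A3 with 3 and EGLN3 with 1), against 14 of the 26 that did not pass. Probe sequences were not examined, and the part of probes shared with pseudogenes in these differences was not tested. Mean values of the 10 genes that fell ranked from the 59.7th to the 99.1st percentile of genes, with a median of 92.1. Those of the other 26 ranked from the 58.8th to the 100th, with a higher median of 96.9.

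Of the 13 non-metabolic targets, 5 fell and 0 rose, and the median difference was -0.46. All 13 differences were below 0, from -1.46 to -0.17, against 8676 of all 18377 genes below 0. For 12 of the 13 all 4 SHP2 miR arrays lay below both controls, against 13.6% of all genes. VEGFA encodes the main growth factor of vessel endothelium. It had 7.23 and 7.15 with SHP2 miR1, 7.45 and 7.35 with SHP2 miR2, against 8.31 and 8.46 with CTRL miR. Both SHP2 miRs were far below the controls, SHP2 miR1 a little further. VEGFA fell by 1.09 (SE 0.13, 2.13-fold, adjusted p = 0.00279).

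ANGPTL4, a secreted inhibitor of lipoprotein lipase that also acts on vessels, had 7.80 and 7.54 with SHP2 miR1, 8.70 and 8.61 with SHP2 miR2, against 9.69 and 9.57 with CTRL miR. The 3 groups were far apart, in the order SHP2 miR1, SHP2 miR2, CTRL miR. ANGPTL4 fell by 1.46 (SE 0.14, 2.76-fold, adjusted p = 0.000959). ADM encodes adrenomedullin, a peptide that widens vessels. It had 8.15 and 7.78 with SHP2 miR1, 8.37 and 8.10 with SHP2 miR2, against 9.23 and 9.30 with CTRL miR. The SHP2 miR groups overlapped each other and lay below the controls, and ADM fell by 1.16 (SE 0.15, 2.24-fold, adjusted p = 0.00452). The HIF-1 cores in the promoter stretches of ANGPTL4 and ADM are printed above.

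EGLN3 and EGLN1 are prolyl hydroxylases that act on HIF1A, and EGLN3 is itself a HIF target, which forms a feedback. EGLN3 had 8.37 and 8.05 with SHP2 miR1, 8.45 and 8.26 with SHP2 miR2, against 9.24 and 9.16 with CTRL miR. All 4 SHP2 miR arrays were clearly below the controls and overlapped each other, and EGLN3 fell by 0.92 (SE 0.14, 1.89-fold, adjusted p = 0.0101). EGLN1 had a difference of -0.25 (adjusted p = 0.287). BHLHE40, a transcriptional repressor of the clock and of differentiation, had 7.76 and 7.81 with SHP2 miR1, 8.44 and 8.42 with SHP2 miR2, against 8.77 and 9.04 with CTRL miR. The groups were apart with SHP2 miR1 lowest, and BHLHE40 fell by 0.80 (SE 0.13, 1.74-fold, adjusted p = 0.0130).

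The other 8 non-metabolic targets did not pass. The mitophagy receptors BNIP3 and BNIP3L had differences of -0.46 (adjusted p = 0.0881) and -0.40 (adjusted p = 0.127). KDM3A, a histone demethylase, had -0.60 (adjusted p = 0.0847), with controls of 6.66 and 7.15 that were themselves far apart. P4HA1 and P4HA2, catalytic subunits of collagen prolyl hydroxylase, had -0.35 (adjusted p = 0.210) and -0.27 (adjusted p = 0.264). NDRG1, a stress-induced gene, had -0.17 (adjusted p = 0.468), and ANKRD37, an ankyrin repeat gene, had -0.32 (adjusted p = 0.188). P4HA1 was the 1 of the 13 in which the SHP2 miR arrays did not all lie below the controls.

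The transcript of HIF1A did not pass. It had 8.74 and 8.83 with SHP2 miR1, 9.22 and 9.28 with SHP2 miR2, against 9.04 and 9.49 with CTRL miR. The SHP2 miR2 arrays lay between the controls and the SHP2 miR1 arrays below them. The average difference was -0.25 with a 95% interval of -0.60 to 0.10 (adjusted p = 0.386). With SHP2 miR1 alone it was -0.48 (95% interval -0.88 to -0.08, adjusted p = 0.119), which passed only in a fit with a mean-variance trend. With SHP2 miR2 alone it was -0.02 (adjusted p = 0.983). The direct contrast, SHP2 miR2 minus SHP2 miR1, gave 0.46 (adjusted p = 0.232). HIF1A protein was not measured.

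Of the classes, the targets outside metabolism and the genes of transport and control had lower medians than the enzymes on every SHP2 miR array. Relative to the control mean, the median enzyme lay at -0.23 and -0.13 with SHP2 miR1, -0.16 and -0.18 with SHP2 miR2, against 0.02 and -0.02 with CTRL miR. The median non-metabolic target lay at -0.61 and -0.62 with SHP2 miR1, -0.48 and -0.42 with SHP2 miR2, against -0.04 and 0.04 with CTRL miR. The median gene of transport and control lay at -0.83 and -0.76 with SHP2 miR1, -0.54 and -0.51 with SHP2 miR2, against 0.02 and -0.02 with CTRL miR. Genes share their arrays and are not replicates, so the classes were described by these counts and medians and not tested against each other.

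**Figure D3:**
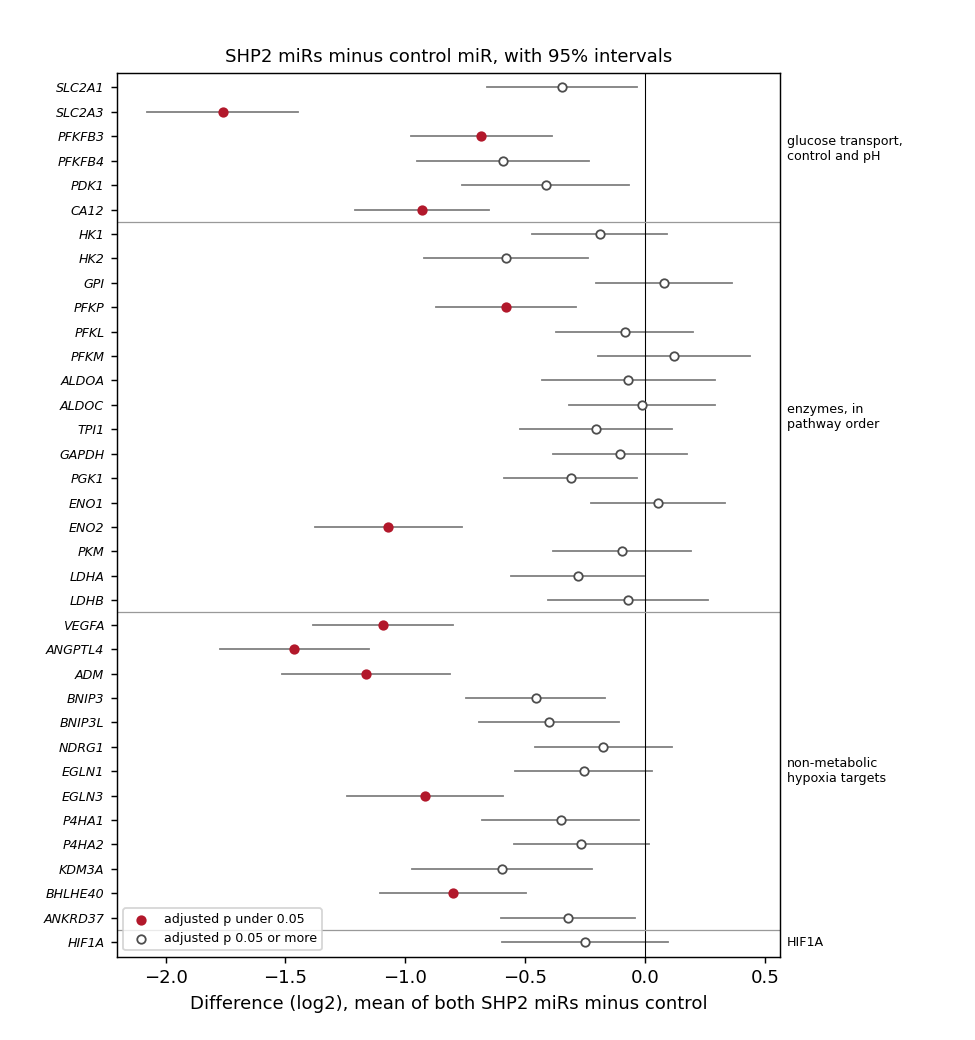
Average difference of each of the 36 genes, both SHP2 miRs minus CTRL miR on the log2 scale, with 95% intervals of the fit; genes run down the page by role and filled points mark the 10 that passed the threshold. Passing genes run from -1.76 for SLC2A3 to -0.58 for PFKP, and most enzymes lie near 0.

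The calls rest on 2 control arrays. Without CTRL miR replicate 1, 3 of the 10 genes kept their call (SLC2A3, VEGFA and ANGPTL4), and without CTRL miR replicate 2, 3 did (SLC2A3, ENO2 and ANGPTL4). SLC2A3 and ANGPTL4 passed with any 1 of the 6 arrays left out (adjusted p up to 0.0165 and 0.0234). CA12, ADM, EGLN3 and BHLHE40 missed the threshold without either control array (adjusted p up to 0.163, for BHLHE40). PFKFB3 held in 2 of the 6 fits (adjusted p up to 0.215), missing the threshold without either control array, SHP2 miR1 replicate 1 or SHP2 miR2 replicate 2. Without any 1 array, the differences of all 10 genes stayed below 0.

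With SHP2 miR1 alone, 13 of the 36 genes fell and 0 rose, while 5.94% of all genes fell, and the median was -0.38. The comparisons of SHP2 miR1, of SHP2 miR2 and of their average with CTRL miR all share the control arrays. The 13 were the 10 genes named above together with HK2, PFKFB4 and P4HA1. SLC2A3 fell by 2.06 (4.17-fold, adjusted p = 0.000305), ANGPTL4 by 1.96 (3.88-fold, adjusted p = 0.000326), ENO2 by 1.46 (2.75-fold, adjusted p = 0.00117) and ADM by 1.30 (2.46-fold, adjusted p = 0.00378). Of the classes, 4 of 6 genes of transport and control fell, 3 of 16 enzymes (HK2, PFKP and ENO2) and 6 of 13 non-metabolic targets. HK2 fell by 0.69 (adjusted p = 0.0438), PFKFB4 by 0.71 (adjusted p = 0.0464) and P4HA1 by 0.75 (adjusted p = 0.0296). The count was 6 without CTRL miR replicate 2 and 8 without either SHP2 miR1 array. PFKFB4 missed the threshold when any 1 of the 6 arrays was left out and with the replicate block, and HK2 and PFKFB4 missed it after quantile normalization. HK2 was also lost without either control array or either SHP2 miR1 array, and P4HA1 without CTRL miR replicate 2 or either SHP2 miR1 array. ADM, PFKP, PFKFB3 and EGLN3 were also lost in some fits with 1 array left out. The differences of ADM in these fits ran from -1.49 to -1.12. Markers of other cell types also passed with SHP2 miR1, 3 of 5 endothelial genes (TEK lower, PECAM1 and KDR higher) and 2 of 4 leukocyte genes. CD14 rose by 1.08 (adjusted p = 0.0366) and CD68 fell by 0.71 (adjusted p = 0.0272), and their part in the 13 calls was not tested.

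With SHP2 miR2 alone, 3 of the 36 genes fell and 0 rose, while 0.180% of all genes fell, and the median was -0.31. These were SLC2A3, which fell by 1.47 (2.76-fold, adjusted p = 0.00934), VEGFA, by 0.99 (1.98-fold, adjusted p = 0.0321), and ANGPTL4, by 0.97 (1.96-fold, adjusted p = 0.0463). ADM had -1.03 (adjusted p = 0.0546), EGLN3 -0.84 (adjusted p = 0.0830), ENO2 -0.68 (adjusted p = 0.128) and CA12 -0.63 (adjusted p = 0.125). No enzyme of the 16 passed, with 2 of them at an unadjusted p under 0.05. Over all genes, 2025 of 18377 were under this unadjusted threshold in the same contrast. The count was 0 without either control array or either SHP2 miR2 array, and 1, SLC2A3, without either SHP2 miR1 array.

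A direct contrast of the SHP2 miRs called 0 of the 36 genes, with 10 at an unadjusted p under 0.05. Over all genes, 0.190% passed and 17.7% had an unadjusted p under 0.05. The value was higher with SHP2 miR2 for 29 of the 36, against 9196 of all 18377 genes. The median difference, SHP2 miR2 minus SHP2 miR1, was 0.13, against 0.0003 over all genes. Both SHP2 miR1 arrays lay below both SHP2 miR2 arrays for 19 of the 36, against 26.4% of all genes. ANGPTL4 differed by 0.99 (95% interval 0.63 to 1.34, adjusted p = 0.0565), P4HA1 by 0.79 (0.41 to 1.16, adjusted p = 0.102) and ENO2 by 0.78 (0.42 to 1.13, adjusted p = 0.0935). VEGFA differed by 0.21 (-0.13 to 0.55, adjusted p = 0.472) and EGLN3 by 0.14 (-0.23 to 0.52, adjusted p = 0.672). PTPN11 itself differed by 1.21 in the same direction (adjusted p = 0.0645), and its part in these differences was not tested. P4HA1 had 8.746 and 8.998 with SHP2 miR1, 9.582 and 9.735 with SHP2 miR2, against 9.498 and 9.737 with CTRL miR. The SHP2 miR2 arrays lay between the controls and the SHP2 miR1 arrays below them.

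**Figure D4:**
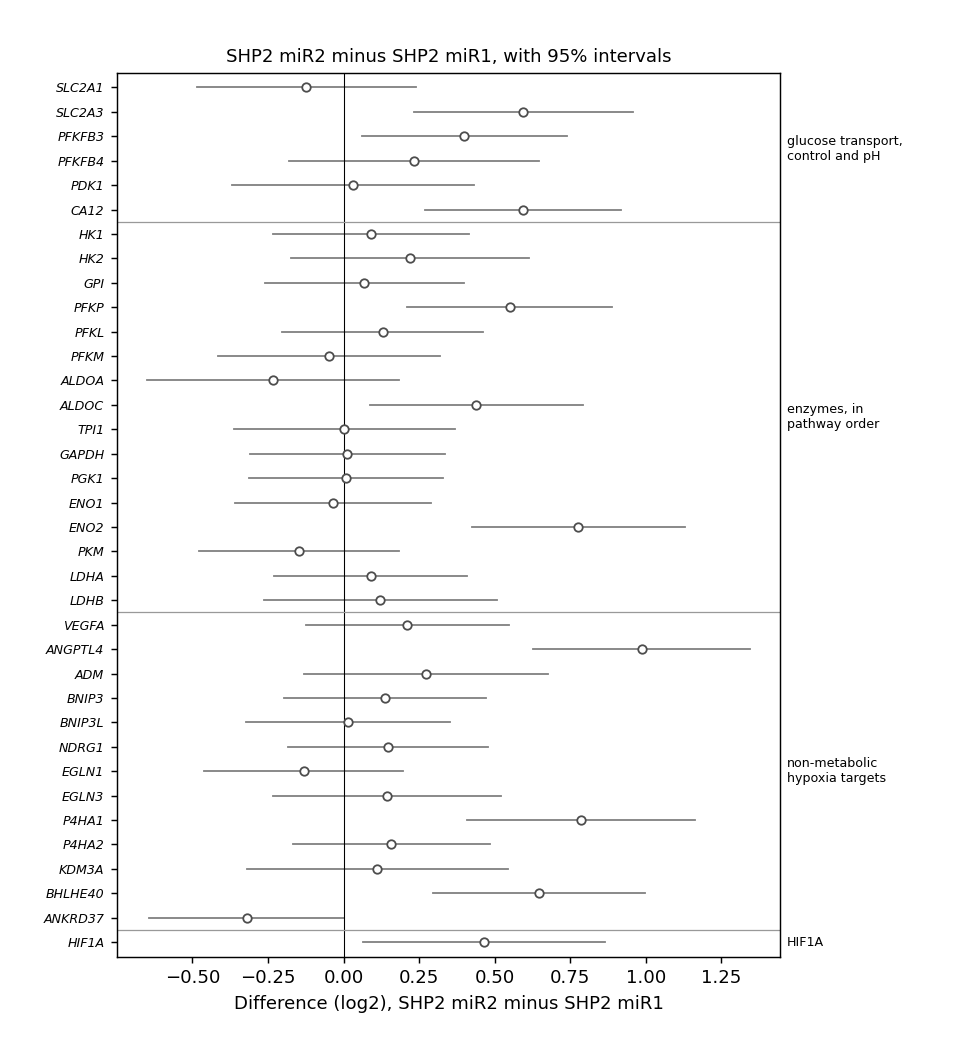
Difference of each of the 36 genes, SHP2 miR2 minus SHP2 miR1 on the log2 scale, with 95% intervals of the fit and genes in rows by role. Most points lie right of 0, up to 0.99 for ANGPTL4, and 0 of the 36 passed after adjustment over all genes.

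Other genes of the same pathways were read from a wider list of 105 genes, of which 96 were measured. Over both SHP2 miRs 6 of the 96 fell and 4 rose, against 2.67% and 1.53% of all genes. The median difference was -0.06. Of 24 other isoenzymes and transporters of glycolysis, 0 passed, with 4 at an unadjusted p under 0.05, against 20.9% of all genes. Of 33 other hypoxia targets, 6 fell and 1 rose. VLDLR, a lipoprotein receptor, had 4.66 and 4.86 with SHP2 miR1, 5.36 and 5.53 with SHP2 miR2, against 6.43 and 6.65 with CTRL miR. It fell by 1.44 (SE 0.14, adjusted p = 0.00112), and STC1, the secreted glycoprotein stanniocalcin-1, fell by 1.23 (SE 0.16, adjusted p = 0.00376). EFNA1, the ligand ephrin-A1, was the 1 that rose, by 0.98 (SE 0.13, adjusted p = 0.00452), with 7.58 and 7.61 with SHP2 miR1, 7.66 and 7.71 with SHP2 miR2, against 6.56 and 6.76 with CTRL miR. Hypoxia targets therefore did not all move one way.

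Of 15 genes of HIF factors and oxygen sensing, 0 fell and 1 rose, against 2.67% and 1.53% of all genes. In this average contrast 12 of the 15 lay below 0, against 8676 of all 18377 genes. At an unadjusted p under 0.05 there were 6 of 15, against 20.9% of all genes. With SHP2 miR1 alone there were 10, against 5169 of 18377, and with SHP2 miR2 alone 1, against 2025. CITED2, a protein that competes with HIF1A for the coactivators p300 and CBP, had 8.92 and 8.94 with SHP2 miR1, 8.53 and 8.36 with SHP2 miR2, against 8.01 and 7.81 with CTRL miR. It rose by 0.78 (SE 0.13, adjusted p = 0.0137), with the highest values under SHP2 miR1. EPAS1, which encodes HIF-2 alpha, had a difference of -0.29 (adjusted p = 0.229), ARNT, the partner of HIF1A, one of -0.01 (adjusted p = 0.977), and VHL, which recognises hydroxylated HIF1A, one of -0.21 (adjusted p = 0.466). Without CTRL miR replicate 1, CITED2 and EFNA1 missed the threshold (adjusted p = 0.0604 and 0.0567), and without CTRL miR replicate 2, CITED2 and STC1 did (adjusted p = 0.175 and 0.0731).

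Of 11 genes that govern the entry of pyruvate into mitochondria, 1 rose and 0 fell. PDK4, a pyruvate dehydrogenase kinase best known from fasting, had 6.41 and 6.58 with SHP2 miR1, 6.44 and 6.51 with SHP2 miR2, against 4.63 and 5.07 with CTRL miR. Both SHP2 miRs gave nearly the same values, well above the controls. PDK4 rose by 1.64 (SE 0.16, 3.11-fold, adjusted p = 0.00104), whereas PDK1, which acts on the same complex, had -0.41 as given above. Of 6 genes of the pentose phosphate pathway 0 passed, with 2 at an unadjusted p under 0.05, against 20.9% of all genes. Of 7 genes of gluconeogenesis 1 rose, G6PC1, which encodes glucose 6-phosphatase. It rose by 0.59 (adjusted p = 0.0357) at values of 3.33 to 4.21, low on every array, and the call was lost after quantile normalization, after centring and when any 1 array was left out (adjusted p up to 0.177).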

How the data were processed

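The authors deposited 1 processed log2 value per probe set and array, made with R 2.10 and oligo 1.8 per the submitters' processing notes. Base 2 was inferred from their range, 1.59 to 13.9, and how background, normalization and summary were handled, and the genome build, is not given in the sources used here. Groups and replicate numbers came from the sample titles.

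Of 28869 probe sets, 19310 had 1 symbol in the platform annotation, 1752 several and 7807 none. The probe set with the highest mean was kept per gene, which left 18377 genes. With limma 3.58.1 (R 4.3.3), 1 mean per group was fitted over all 6 arrays and variances were moderated by eBayes (6.10 prior and 3 residual degrees of freedom). The contrasts were both SHP2 miRs averaged minus CTRL miR, each SHP2 miR minus CTRL miR, and SHP2 miR2 minus SHP2 miR1. Two-sided p-values were Benjamini-Hochberg adjusted over all genes, threshold 0.05, and SEs and 95% intervals are those of the fit. The fit was tested on simulated data.

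All 36 genes are named, with PTPN11, EPAS1, ARNT, VHL, at most 3 passing genes of each further list by smallest p, and defining markers. Promoters were printed for up to 4 passing genes by smallest p with a core, except on a chromosome whose sequences are not reported here. Genes and lists were chosen with earlier results of these data known. Alternatives were a mean-variance trend or robust prior, dim genes left out (mean at or below the 40th percentile), quantile normalization, centring on array medians, averaged probe sets, only the groups compared, a replicate block, and leaving out each array, with a lone array assumed to vary like the other groups. The number of arrays limits the precision.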

Additional observations from a re-analysis of the deposited data

Results flagged for a closer look

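ALDOC, an aldolase, was the 1 gene of the 36 in which both arrays of SHP2 miR1 lay below both controls while both arrays of SHP2 miR2 lay above both. The share of all genes with this order is not given here, so the count cannot be read as particular to these genes. The difference, SHP2 miR2 minus SHP2 miR1, was 0.44 on the log2 scale (SE 0.16, 95% interval 0.09 to 0.79) and did not pass in the direct limma contrast (adjusted p = 0.210). With 2 arrays per group, single arrays could not be screened for outlying values.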

How the results depend on the processing

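For the average over both SHP2 miRs, 10 of the 36 genes passed. The same 10 passed with a robust prior, averaged probe sets and the replicate block. Leaving out dim genes kept all 10 and added HK2 and PFKFB4 (12 genes). Centring kept all 10 and added PFKFB4 (11 genes). With a mean-variance trend, all 10 stayed and SLC2A1, HK2, PFKFB4, PGK1, LDHA, BNIP3, BNIP3L, P4HA1 and KDM3A were added. A mean-variance trend gave 19, quantile normalization 9 without PFKP, and leaving out 1 array 3 to 9. By class, enzymes gave 2, against 5 with the trend, 1 with quantile normalization and 0 to 1 with 1 array left out. Transport and control gave 3, against 5 with the trend and 1 to 3, non-metabolic targets 5, against 9 and 1 to 5, and the wider list 10, against 18 and 3 to 9. The median of the 36 genes was -0.31 with quantile normalization, -0.37 with centring and -0.34 to -0.31 with 1 array left out. For transport and control these were -0.575, -0.675 and -0.738 to -0.619, for non-metabolic targets -0.415 with quantile normalization and -0.501 to -0.353 with 1 array left out, and for enzymes -0.15 to -0.10. SHP2 miR1 alone gave 13, against 21 with the trend, 12 with the replicate block and 6 to 12 with 1 array left out. SHP2 miR2 alone gave 3, against 10 with the trend, 5 with dim genes left out, 1 with the replicate block, 1 in a fit of only the groups compared and 0 to 1 with 1 array left out. The direct contrast gave 0, against 7 with the trend, 1 with dim genes left out, 1 (ANGPTL4) with centring and 0 with 1 array left out. The cause of these shifts was not tested, except that a fit on fewer arrays has fewer degrees of freedom. Replicate numbers were not treated as pairs in the main fit. Deviations of same-numbered arrays correlated at 0.07, 0.14 and 0.01 across genes. With 2 arrays per group, these values cannot show whether same-numbered arrays were handled together, which the labels do not state.

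Signs turned only in differences that did not pass. In the average contrast, ALDOC became 0.0318 and ARNT 0.0642 with quantile normalization, and with 1 array left out ALDOA lay between -0.20 and 0.0562, ALDOC between -0.0744 and 0.0503, LDHB between -0.19 and 0.0508 and ARNT between -0.0874 and 0.0654. For SHP2 miR1, centring gave GPI -0.0359, ALDOA -0.0345 and ENO1 -0.00928, quantile normalization gave ARNT 0.0200, and with 1 array left out ALDOA lay between -0.20 and 0.30 and PKM between -0.10 and 0.0565. For SHP2 miR2, quantile normalization gave PFKL 0.00304 and VHL 0.0469, centring gave VHL 0.00263, and with 1 array left out PFKL lay between -0.0904 and 0.048, PFKM between -0.0516 and 0.24, ENO1 between -0.000657 and 0.0736, LDHB between -0.16 and 0.14, P4HA1 between -0.0784 and 0.16, HIF1A between -0.24 and 0.20, ARNT between -0.0735 and 0.23 and VHL between -0.17 and 0.17.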
